A study of Mus musculus with 8 samples.

Results

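Lachnospiraceae were followed in stool of 8 female mice as the 144 sequence variants that the taxonomy strings of the deposited table assign to this family and that had at least 1 read in these animals, of 434 variants with reads in all. A sequence variant is a distinct 16S ribosomal RNA gene sequence inferred from the reads. Another 1007 Lachnospiraceae entries of the table had 0 reads here, and the rarest members held 2 reads each. Of the mice, 4 carried the genotype ko for Gpr15l, written Gpr15l-/- in the sample titles and called knockouts here, and 4 carried the genotype wt and are called controls. All were littermates housed together for 8 weeks before stool was taken. Strain, age, cage, litter and the design of the null allele were not given in the sources used here. The mice are numbered 1 to 4 within each genotype by order of deposit, which pairs no knockout with a control. The comparison asks whether the family differs between littermates of unlike Gpr15l genotype that lived together.

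Lachnospiraceae are anaerobic Clostridia of the gut, many of them spore-forming, that ferment plant polysaccharides and sugars to short-chain fatty acids. Several genera make butyrate, a fuel of the colon epithelium that also favours regulatory T cells, and others fix hydrogen and carbon dioxide into acetate. Gpr15l encodes a secreted ligand of GPR15, a receptor that guides T cells to the large intestine, and the peptide has also been described as antimicrobial. A bacterial genome usually holds several copies of the 16S gene, which can differ in sequence, so a variant is not the same as a strain. Shares of reads are relative, so fewer cells of a bacterium, fewer gene copies per cell and more of other bacteria cannot be told apart.

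All 144 variants sat in the order Lachnospirales of the class Clostridia and phylum Bacillota, and no other family of that order had reads. They carried 22 genus names in 98 variants, and the other 46 had no genus name. No variant had a species name. The variants are named by their position in the deposited table. The libraries held 129792 to 226654 reads in knockouts and 38578 to 122026 in controls, so every knockout library was deeper than every control library. The family held 95845 of 914504 reads, from 3315 in control 1 to 21423 in knockout 3. Knockout 1 stood apart in scaling, with a TMM factor of 0.52 against 0.70 to 1.38 in the other mice at the level of variants, and control 2 had the fewest reads.

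The family's share of reads varied 6.26-fold between mice and overlapped between genotypes. It was 3.32%, 14.4%, 16.5% and 6.17% in knockouts 1 to 4 and 7.00%, 14.2%, 20.8% and 13.3% in controls 1 to 4. The lowest share was that of a knockout and the highest that of a control, and the mice between them were mixed. The knockout mean was 10.1% ± 6.35 and the control mean 13.8% ± 5.63 (SD, n = 4 each), a difference of -3.71 percentage points that is smaller than either spread. Leaving out 1 mouse moved it from -5.98 without control 1 to -1.45 without knockout 1 and -1.39 without control 3. The 95% Wilson interval of a single mouse's share was 3.25 to 3.39% in knockout 1 and 20.4 to 21.1% in control 3. This interval covers the sampling of reads only. The amplified reads have no molecular tags, so it treats copies of 1 template as separate reads. In a model over all 39 families tested, the log2 fold change of Lachnospiraceae, knockout over control, was -0.21 ± 0.38 SE (edgeR quasi-likelihood adjusted p = 0.850). Of those families, 5.13% passed the threshold. Without knockout 1 the fold change was 0.013, without knockout 1 and control 2 it was 0.12, and without control 3 it was -0.0014. It was -0.45 with total reads as the only scaling, -0.07 with DESeq2 and -0.08 with centred log-ratios. Its direction turned without knockout 1, and it was near 0 without control 3 as well.

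Measured within Bacillota alone, the family was nearly level across the mice. Lachnospiraceae made up 56.6%, 57.6%, 53.9% and 51.6% of Bacillota reads in knockouts 1 to 4 and 51.0%, 53.4%, 55.3% and 58.1% in controls 1 to 4. The highest of these was 1.14 times the lowest, whereas the share of all reads differed 6.26-fold. Bacillota as a whole ranged from 5.86% of reads in knockout 1 to 37.6% in control 3. Oscillospiraceae, the next largest Bacillota family and another group of Clostridia, ranged from 10.9 to 23.3% of Bacillota reads and differed 4.32-fold in share of all reads. What the larger size of Lachnospiraceae contributes to its narrower range was not tested. The mean share of Bacillota reads was 54.9% ± 2.74 for the 4 knockouts and 54.4% ± 2.99 for the 4 controls (SD), a difference of 0.486 points. Muribaculaceae, the most abundant family of Bacteroidota here, made up 43.7 to 66.4% of all reads in knockouts and 13.6 to 52.5% in controls, and its part in the Lachnospiraceae share was not tested. As a share of reads outside Muribaculaceae, Lachnospiraceae averaged 21.3% ± 9.08 in knockouts and 20.5% ± 6.90 in controls.

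**Figure D1:**
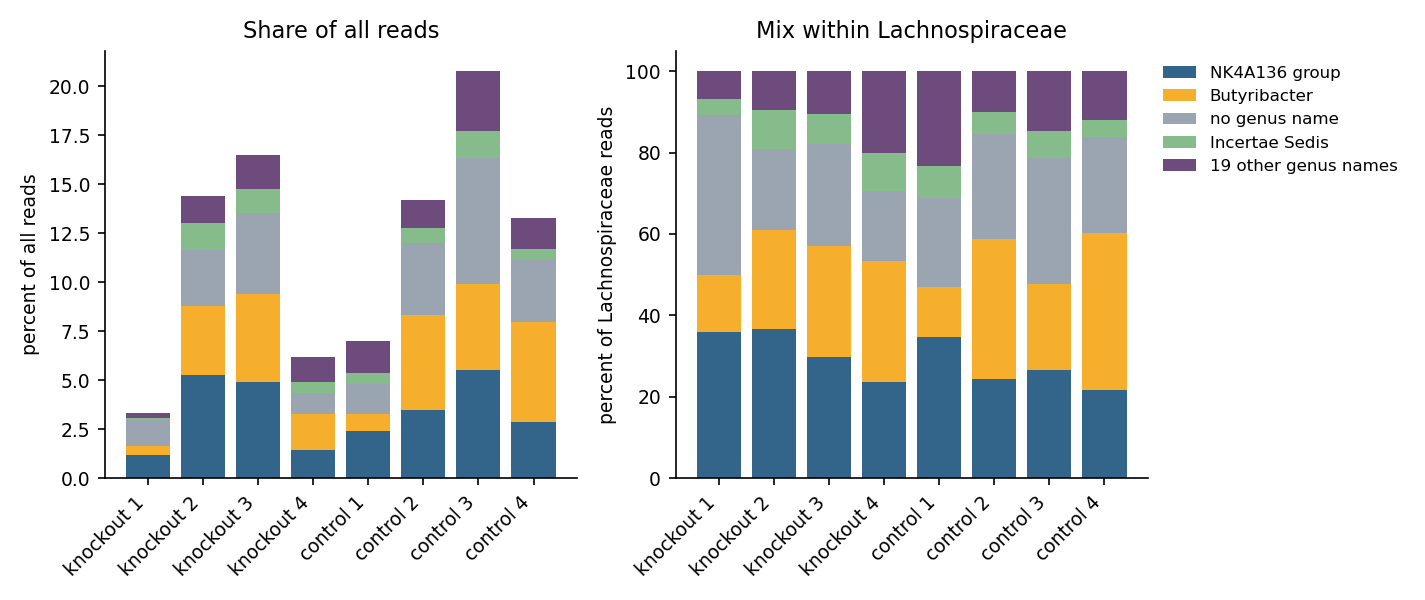
Stacked bars show, for each of the 8 mice, the Lachnospiraceae reads by genus name as a percent of all reads (left) and of Lachnospiraceae reads (right). Totals on the left run from 3.32% in knockout 1 to 20.8% in control 3, and on the right the NK4A136 group, Butyribacter and the variants without a genus name fill most of every bar.

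Most of the family's reads fell in 3 groups: the Lachnospiraceae NK4A136 group, Butyribacter and the variants without a genus name. Together they averaged 79.8% of Lachnospiraceae reads. None of the 18 genus groups tested passed the threshold, with log2 fold changes from -0.90 to 0.96 and a lowest edgeR adjusted p of 0.949 (lowest unadjusted p = 0.311). Their SE ran from 0.36 to 1.59, so the lack of a call does not show that the genotypes were alike. Of all 79 genera tested, 1.27% passed. DESeq2 and centred log-ratios with limma called none of the Lachnospiraceae groups either. No Lachnospiraceae group had its knockouts and controls without overlap, which 6.33% of all genera showed as lower in knockouts and 0% as higher. Fitted fold changes were above 0 in 8 of the 18 groups and below 0 in 10, while 58.2% of all genera were above 0. With total reads as the only scaling, the median log2 fold change of all genera moved from 0.078 to -0.34, so that changes measured that way sit on a lower baseline.

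The NK4A136 group, commonly counted among the butyrate formers of the mouse gut, was the largest named group, with 27 variants. It made up 1.19%, 5.27%, 4.93% and 1.47% of reads in knockouts 1 to 4 and 2.43%, 3.48%, 5.53% and 2.89% in controls 1 to 4. Knockouts 1 and 4 lay below every control, and knockouts 2 and 3 above every control but control 3. Knockout and control means were 3.21% ± 2.18 and 3.58% ± 1.37. The log2 fold change was 0.18 ± 0.36 SE (edgeR adjusted p = 0.949), and it was -0.16 with total reads as the only scaling. As a part of the family it was 23.8 to 36.6% in knockouts and 21.8 to 34.6% in controls.

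Butyribacter, a genus of butyrate-forming gut bacteria, held 5 variants. It made up 0.466%, 3.52%, 4.48% and 1.83% of reads in knockouts and 0.866%, 4.86%, 4.37% and 5.10% in controls. Knockout 1 and control 1 were low, and the highest values of both genotypes lay close together. The means were 2.58% ± 1.78 and 3.80% ± 1.98 (log2 fold change -0.27 ± 0.56, edgeR adjusted p = 0.949). Within the family its part ran from 12.4% in control 1 to 38.5% in control 4.

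The variants with no genus name made up 1.31%, 2.85%, 4.13% and 1.05% of reads in knockouts and 1.52%, 3.67%, 6.44% and 3.14% in controls. Their part of the family was 39.4% in knockout 1 and between 17.0 and 31.0% in the other mice. Incertae Sedis, a holding name for members of unsettled position, had 23 variants and made up 0.125%, 1.38%, 1.22% and 0.581% in knockouts and 0.558%, 0.770%, 1.39% and 0.559% in controls. The genotypes overlapped in both groups, with log2 fold changes of -0.20 ± 0.44 and 0.30 ± 0.48.

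The FCS020 group was a single variant, ASV3300. It made up 0.0269%, 0.286%, 0.391% and 0.369% of reads in knockouts and 0.363%, 0.524%, 1.08% and 0.477% in controls. Knockouts 1 and 2 lay below every control and knockouts 3 and 4 just above the lowest control, and the log2 fold change was -0.71 ± 0.66 (edgeR adjusted p = 0.949). It was -1.40 without knockout 4 (edgeR unadjusted p = 0.0403, adjusted p = 0.750) and -0.41 without control 3. Roseburia, flagellated butyrate formers, made up 0.0331%, 0.179%, 0.284% and 0.324% in knockouts and 0.241%, 0.275%, 0.621% and 0.268% in controls, with a log2 fold change of -0.21 ± 0.66.

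Marvinbryantia, a genus known for making acetate from formate and hydrogen, was present in 6 of the 8 mice. Its share was 0%, 0.196%, 0.147% and 0.118% in knockouts 1 to 4 and 0.524%, 0%, 0.140% and 0.266% in controls 1 to 4. The mice without it were 1 of each genotype, and control 1 had the most. The log2 fold change was -0.84 ± 1.59, and without control 1 it was 0.069. A count of 0 allows up to 3 reads, or 0.00132% of the reads of knockout 1 and 0.00778% of those of control 2, far below every share in the mice that had the genus. GCA-900066575, a genus known from a genome assembly, was missing from knockout 1 alone and made up 0.0528 to 0.281% in the other 7 mice.

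The 4 remaining genera named here were smaller. Lachnoclostridium, a collection of former Clostridium species, made up 0.0335 to 0.196% of reads in knockouts and 0.0285 to 0.211% in controls. ASF356, named after a member of the altered Schaedler flora of laboratory mice, made up 0.0140 to 0.0662% in knockouts and 0.0595 to 0.233% in controls. Extibacter, a genus known for a mouse isolate that removes hydroxyl groups from bile acids, made up 0.00485 to 0.128% and 0.0232 to 0.258%. Faecalimonas made up 0.0154 to 0.0611% and 0.0441 to 0.0710%. The ranges of the genotypes overlapped in each of the 4. The other 11 genus names had mean shares from 0.000441% to 0.0454% and summed to 0.189%. Among them, 3 were seen in all 8 mice and 2 in 1 mouse. Blautia, acetate-forming bacteria that are often abundant in the human gut, had reads in knockout 1 (0.0119%) and knockout 2 (0.00503%) and none in the other mice.

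Genera were also grouped by role. Of 14 genus names listed as butyrate formers, 6 were seen, and they made up 1.70%, 9.05%, 9.86% and 3.68% of reads in knockouts and 3.58%, 8.70%, 10.7% and 8.29% in controls. Among their 31 variants tested, 16 lay above 0 and 15 below, the median was 0.0030 (0.19 over all variants tested), and 0 passed. The acetogens and hydrogen users, Blautia and Marvinbryantia, had 4 variants tested, all of Marvinbryantia and all with a fitted fold change below 0, and 0 passed. Of these 4, 3 came with each other in a near-constant ratio, as described with the pairs of variants. Tyzzerella, the genus seen from the list linked to mucin and host glycans, had 1 variant tested, which did not pass. Lachnoclostridium and Enterocloster, the genera seen from the bile acid and cluster XIVa list, had 3 variants tested, 1 above and 2 below 0, and 0 passed. Extibacter is not on that list and did not pass either.

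Of the 144 variants, 94 had at least 10 reads in at least 3 mice and were tested, and they held 98.7% of the family's reads. The edgeR test over all 265 variants called 0 of the 94, and 0% of all variants. DESeq2 and centred log-ratios with limma also called 0 of the 94. Without adjustment, 3 of the 94 reached a p below 0.05 with higher values in knockouts and 0 with lower values, and the shares over all variants tested were 10.6% and 2.26%. Those numbers of the family changed with single mice left out. They were 5 higher and 7 lower without knockout 1, 1 and 1 without knockout 4, and 2 and 0 without control 4. Without knockout 2 or without knockout 3 they were 0 and 0, because the 3 higher variants then fell below the low-count filter. Some of the 3 fell out likewise without knockout 1 or knockout 4, so these counts partly follow the filter. With total reads as the only scaling, DESeq2 or centred log-ratios, 3 were lower. Shares over all variants tested are given for the main edgeR fit alone, so these other counts have no background beside them. Fitted changes were above 0 in 44 of the 94 and below 0 in 50. Their median was -0.10 and that of all 265 was 0.19, with 57% above 0. With total reads as the only scaling, 27 were above 0 and 67 below, with medians of -0.51 for the family and -0.33 for all. With DESeq2 the split was 34 and 60, or 36.2% above 0 against 46.8% of all variants. The balance of directions turned with log2 total reads as a covariate, at 58 above and 36 below. That was 61.7% above 0, against 62.6% of all variants. It moved to 17 and 64 of 81 tested without knockout 3 (21.0%, and 40.7% of all variants). Without control 2 it was 30 and 60 of 90 (33.3%, and 45.2% of all variants). The percent above 0 over all variants thus moved in the same direction as that of the family in these settings. All variants include those of the family, and the other families were not counted apart, so this is no separate background.

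**Figure D2:**
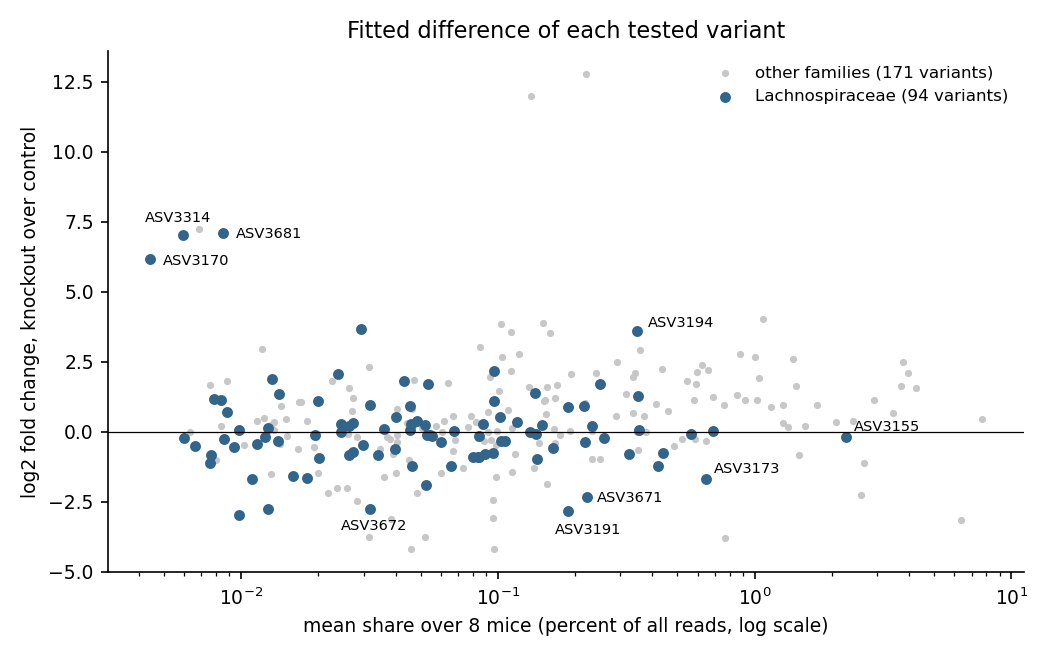
Each point is 1 of the 265 variants tested, placed by its mean share of reads over the 8 mice (log axis, percent) and its fitted log2 fold change, knockout over control. The 94 Lachnospiraceae variants lie on both sides of 0, and the 3 points of the family above 6 are rare variants with 0 reads in every control, whose fitted values are no measure of size.

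The 3 variants with an unadjusted p below 0.05 were rare and had reads in knockouts alone. ASV3681 of Butyribacter had 0, 19, 54 and 19 reads in knockouts 1 to 4, ASV3314 of the NK4A136 group had 44, 12, 25 and 0, and ASV3170 of the same group had 0, 12, 26 and 10, with 0 reads in every control. Each was missing from 1 knockout as well, and each reached the low-count filter through those 3 knockouts alone, so that a difference was built into passing it. Against a floor of 3 reads in each control library, the mean share of the knockouts was 3.15 times as high for ASV3681, 2.20 times for ASV3314 and 1.64 times for ASV3170 (edgeR adjusted p = 0.257, 0.257 and 0.279). These ratios allow for counting in controls only and leave out the spread among knockouts, so they are no lower bounds. At the knockout mean share of ASV3170, control 2 would be expected to hold 3.40 reads, close to that floor, and control 4 10.8.

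In 3 of the 94 variants every knockout lay below every control, and in 0 every knockout lay above. Over all variants tested these shares were 6.04% and 3.77%, so the family's count is not above the background. ASV3191 of the NK4A136 group made up 0%, 0.0309%, 0.0431% and 0.0685% of reads in knockouts 1 to 4 and 0.423%, 0.446%, 0.200% and 0.288% in controls 1 to 4. Its lowest control was well above its highest knockout, with a log2 fold change of -2.82 ± 1.31 (edgeR adjusted p = 0.383). ASV3671 of Butyribacter made up 0%, 0.144%, 0.0686% and 0.0273% in knockouts and 0.433%, 0.163%, 0.680% and 0.261% in controls (log2 fold change -2.34 ± 1.34, edgeR adjusted p = 0.566), where knockout 2 and control 2 lay close together. ASV3672 of Roseburia was scarce, with 19, 9, 10 and 0 reads in knockouts and 23, 43, 10 and 66 in controls. Its read numbers overlapped, and the genotypes were apart in shares only. The highest knockout share was 0.00838% in knockout 1, and the lowest control share was 0.0165% in control 3, from 10 reads. The log2 fold change of ASV3672 was -2.77 ± 1.39 (edgeR adjusted p = 0.456).

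The 10 variants of highest mean share had edgeR adjusted p-values from 0.487 to 0.999. ASV3155 of Butyribacter led the family, at 0.357%, 2.57%, 3.23% and 1.35% of reads in knockouts and 0.327%, 3.86%, 2.79% and 3.66% in controls. It was the top Lachnospiraceae variant in 6 mice and held 13.4 to 27.6% of the family's reads there. In knockout 1 the top variant was ASV3173, which has no genus name and held 11.9% of the family, and in control 1 it was ASV3237 of the NK4A136 group, with 8.78%.

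ASV3173 made up 0.396%, 0.112%, 0.242% and 0.0379% of reads in knockouts and 0.296%, 1.25%, 1.50% and 1.33% in controls. Controls 2 to 4 lay above all knockouts, and control 1 lay among them (log2 fold change -1.68 ± 0.88, edgeR adjusted p = 0.487). It led the unnamed group in all 4 controls and in knockout 1, whereas ASV3212, ASV3219 and ASV3275 led it in knockouts 2, 3 and 4. ASV3309, also unnamed, made up 0.0685 to 0.253% in knockouts and 0.0254%, 0.863%, 1.19% and 0.590% in controls 1 to 4, so control 1 was low here too.

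Different variants led the NK4A136 group in different mice. The leader was ASV3147 in knockout 1 (29.5% of the group's reads), ASV3194 in knockout 2 (33.7%), ASV3135 in knockout 3 (17.7%) and ASV3103 in knockout 4 (29.4%). It was ASV3237 in control 1 (25.3%), ASV3198 in control 2 (19.9%), ASV3103 in control 3 (19.8%) and ASV3237 in control 4 (26.3%). The group's level thus came from different members in different animals. ASV3194 had 0, 2468, 991 and 6 reads in knockouts 1 to 4 and 0, 0, 62 and 188 in controls 1 to 4, with a log2 fold change of 3.60 ± 2.27 (edgeR adjusted p = 0.656). Its knockout mean of 0.635% ± 0.839 came from knockouts 2 and 3. ASV3135 was likewise high in knockouts 2 and 3, at 0.905% and 0.871%, against 0.00618% and 0.128% in knockouts 1 and 4 and 0.144 to 0.292% in controls.

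ASV3237, by contrast, was seen in every mouse at 0.118 to 0.740% in knockouts and 0.557 to 0.758% in controls. ASV3241 made up 0.0477 to 0.451% and 0.399 to 0.504%. In both, the controls were closely grouped and the knockouts spread widely around or below them. ASV3103 had 0 reads in knockout 1 and made up 0.342 to 0.453% in the other knockouts, and it ranged from 0.0389% in control 2 to 1.09% in control 3. The remaining members of the 10, ASV3160 and ASV3300, followed ASV3155 and the FCS020 group.

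The number of Lachnospiraceae variants per mouse was compared after thinning to equal read numbers, because knockout libraries were deeper. The variants had been inferred before this thinning, so it cannot equalize what each library's depth let that step resolve. A deeper library may keep rare variants for that reason, and the part of this in the knockout numbers was not tested. Thinned to the 38578 reads of the shallowest library, the expected number was 59.5, 109, 98.1 and 77.6 in knockouts 1 to 4 and 67.0, 64, 83.9 and 86.4 in controls 1 to 4. The richest and the poorest mouse were both knockouts. Knockouts averaged 86.1 ± 22.0 and controls 75.3 ± 11.5 (SD, n = 4 each), and the difference of 10.8 was below the spread among knockouts. It rested on single mice, at 19.6 without knockout 1, 3.10 without knockout 2, 6.75 without knockout 3 and 7.00 without control 2. As deposited, the numbers were 63, 111, 99 and 80 in knockouts and 67, 64, 84 and 88 in controls. Thinned to the 3315 Lachnospiraceae reads of control 1, the means were 85.9 ± 19.0 and 74.5 ± 10.5. Knockout 1 had the most reads in all, 7524 Lachnospiraceae reads and the fewest variants at either depth. The Shannon index within the family was 3.12, 3.53, 3.57 and 3.37 in knockouts and 3.70, 3.08, 3.61 and 3.10 in controls, with means of 3.40 ± 0.20 and 3.37 ± 0.33.

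**Figure D3:**
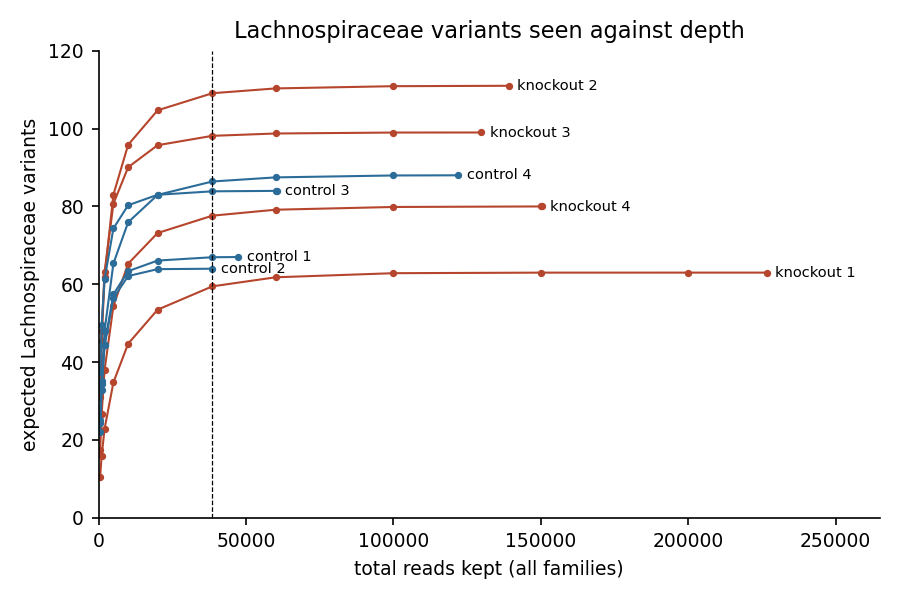
Lines give the expected number of Lachnospiraceae variants (y axis) when each library is thinned to the number of reads on the x axis, with knockouts in red and controls in blue, and the dashed line marks 38578 reads. The line of control 2 ends there, the other lines are nearly flat beyond it, and knockouts hold the 2 highest positions and the lowest. With 2 counts of 1 in the whole table, flat lines do not show that sampling was complete.

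Presence split the family into a common core and a long tail. A core of 31 of the 144 variants had reads in every one of the 8 mice and carried 68.8% of the family's reads, and 31 others had reads in 1 mouse and carried 0.423%. Over all 434 variants, 28.3% were seen in all mice and 26.3% in 1, against 21.5% and 21.5% in Lachnospiraceae. In Oscillospiraceae, Ruminococcaceae and Butyricicoccaceae together, 26.0% of 77 variants were seen in all mice, and in Muribaculaceae 51.7% of 60. These differences were not tested. The core of 31 held 9 variants without a genus name, 7 of the NK4A136 group, 5 of Incertae Sedis and 2 of Butyribacter, with 8 further genus names at 1 each. At equal depth, 23 variants had an expected presence of at least 0.95 in every library.

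Of all 144 variants, 101 were seen in both genotypes, core included, 30 in knockouts alone and 13 in controls alone. The 30 held 945 reads (0.986% of the family's reads) and the 13 held 87 reads (0.0908%). All 13 were seen in a single control, and of the 30, 18 were seen in 1 knockout, 9 in 2, 3 in 3 and 0 in all 4. No variant was therefore shared by all mice of one genotype and missing from the other. Every knockout library was deeper than every control library, and the part of depth in the unequal numbers of 30 and 13 was not tested.

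**Figure D4:**
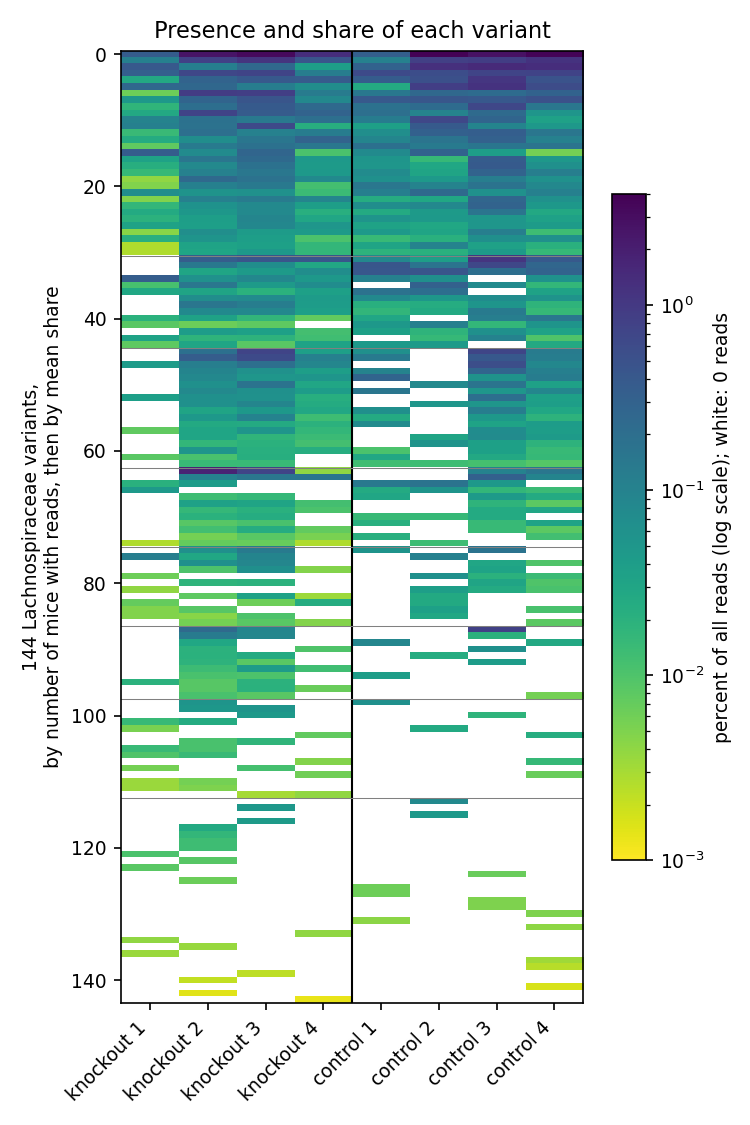
Each row is 1 of the 144 Lachnospiraceae variants and each column a mouse, with knockouts left of the black line; colour gives the percent of all reads on a log scale and white means 0 reads. Rows are ordered by the number of mice with reads, from 31 variants in all 8 mice at the top to 31 in 1 mouse at the bottom, and white gaps in knockout 1 and control 2 often fall in the same rows.

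Knockout 1 and control 2 lacked the same variants more often than any other pair of mice. They also had the fewest Lachnospiraceae variants of all the mice, at 63 and 64 as deposited. The part of this in their shared absences was not tested. In all, 9 variants were seen in the other 6 mice and in neither knockout 1 nor control 2, against at most 4 for any of the other pairs. They were ASV3260, ASV3261 and ASV3262 of Marvinbryantia, ASV3212 and ASV3219 without a genus name, ASV3270 of Incertae Sedis, ASV3277 of Lachnoclostridium, ASV3377 of Tyzzerella and ASV3683 of Roseburia, all found after their values were seen. ASV3212 had 0, 479, 812 and 160 reads in knockouts 1 to 4 and 63, 0, 245 and 145 in controls 1 to 4. ASV3683 had 0, 132, 77 and 58 in knockouts and 47, 0, 163 and 134 in controls. If these mice had held the 9 variants at the mean part of the family seen in the other mice of their genotype, knockout 1 would have had from 16.2 to 198 reads of each and control 2 from 7.99 to 95.8.

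The mix within the family was compared by Bray-Curtis distances of within-family shares, where 0 is an identical and 1 a wholly different mix. Knockouts 2 and 3 were the most alike, at 0.221, and controls 2 and 4 followed at 0.251. The nearest mouse to knockout 1 was control 2, at 0.450, and by presence alone (Jaccard distance) each of these was the other's nearest, at 0.413. Mean Bray-Curtis distances were 0.457 among knockouts, 0.416 among controls and 0.450 between mice of unlike genotype. These means turned on knockout 1, which was at least 0.589 from every other knockout. Without it the mean was 0.297 within knockouts and 0.424 between genotypes, and knockouts 2 to 4 were 0.221 to 0.339 from each other and 0.355 to 0.542 from the controls. Within controls the mean was 0.337 without control 1. By presence alone, means were 0.437 among knockouts, 0.409 among controls and 0.432 from one genotype to the other. Leaving out knockout 1 gave 0.299, 0.409 and 0.399. Distances share mice and were not tested, and leaving out mice was added after the values were seen.

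Some variants kept a nearly fixed ratio to each other in all mice. ASV3155 and ASV3160, both Butyribacter, stood in ratios of 3.28, 3.22, 2.84 and 3.04 reads in knockouts 1 to 4 and 3.10, 4.61, 3.11 and 3.10 in controls 1 to 4, while ASV3155 itself varied from 0.327 to 3.86% of reads. The SD of their log2 ratio over the 8 mice was 0.21, and counting error alone would give 0.11. Control 2 had the outlying ratio. The pair was picked as the lowest of 2274 Lachnospiraceae pairs with enough reads, whose median SD was 2.48, and the ratios share each mouse's library. ASV3671, another Butyribacter variant, did not follow them, with 0 reads in knockout 1 and 205 in control 1, where ASV3155 had 809 and 155.

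**Figure D5:**
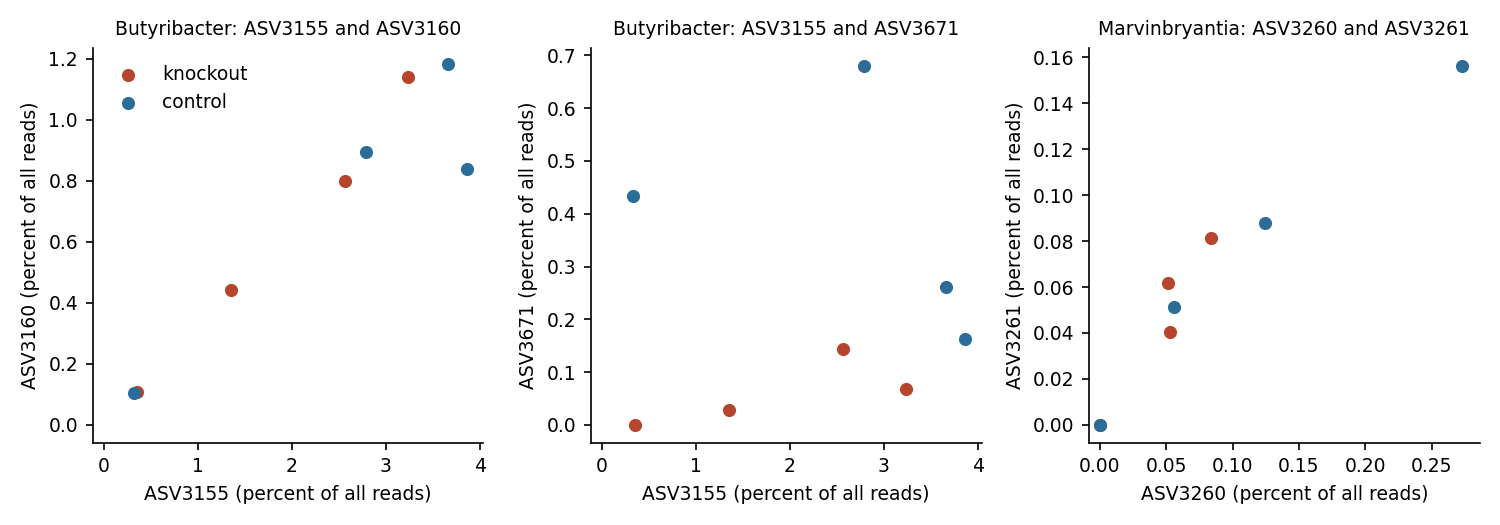
Points are the 8 mice (knockouts red, controls blue), placed by the percent of all reads of a pair of variants of 1 genus, with linear axes. ASV3160 rises with ASV3155 in a near-constant ratio of 2.84 to 4.61, ASV3671 does not, and in the right panel 2 mice, knockout 1 and control 2, lie together at 0 for both Marvinbryantia variants.

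Marvinbryantia variants also moved together. ASV3260, ASV3261 and ASV3262 were present in the same 6 mice and absent from the same pair, and the SD of the log2 ratio was 0.37 for ASV3260 with ASV3261, 0.33 for ASV3261 with ASV3262 and 0.43 for ASV3260 with ASV3262. Counting error alone would give 0.24, 0.31 and 0.30. In ASV3261 and ASV3262 the ratio ran from 1.55 in control 3 to 3.14 in knockout 2. Pairs of different names were found as well. ASV3212, without a genus name, and ASV3270 of Incertae Sedis stood in ratios of 5.25 to 8.45 in the 6 mice that had them (SD 0.26, counting error 0.30). In all, 24 of the 2274 pairs (1.06%) had an SD below 0.5, and 6 of the 24 (25%) shared a genus name, against 5.98% of all the pairs. Another 3 of the 24 were pairs of variants without a genus name. Over all families, 0.461% of 22977 pairs had so low an SD. These numbers describe pairs that share mice and were not tested.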

How the data were processed

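Stool DNA of 8 mice was amplified over the V4 region of the 16S gene and sequenced on a MiSeq, per the labels' protocols. The deposited table holds raw read counts per sequence variant, inferred with DADA2 according to its name. R 4.5.1 and limma are named in the submitters' processing notes without a role. The sources used here do not name the read filters, the chimera step or the reference behind the taxonomy. The members and lists were chosen with earlier results of these data known.

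Counts were summed to genera (family and genus name together, unnamed kept apart) and families. Units reaching 10 reads in 3 or more mice were fitted with edgeR 4.0.16 (R 4.3.3; TMM factors, robust quasi-likelihood), with Benjamini-Hochberg adjustment over all units of a level, a threshold of 0.05, and genotype as the only term. Each fold change divides knockouts by controls. The SE beside an edgeR log2 fold change is approximate. It is the absolute log2 fold change divided by the square root of the test's F statistic. DESeq2 1.42.0 (poscounts) and limma 3.58.1 on centred log-ratios (pseudocount 0.5) were alternatives. The fits were first run on simulated counts with large built-in changes and a common spread for all variants. Those counts are simpler than these data, so the run does not show how the fits perform here. Shares are percent of all reads. Thinning used the exact hypergeometric expectation (Python 3.11.15, SciPy 1.17.1). The table holds 2 counts of 1 and 24 of 2 over all variants and mice, so a 0 may also be reads that were not resolved into a variant. Totals include 302 mitochondrial and 2 eukaryotic reads.

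Named are genus groups with a mean share of at least 0.05%, the 10 variants of highest mean share, the 5 of smallest unadjusted p, and tested variants without overlap between genotypes. Others were chosen after their values were seen. For pairs, each variant had 10 or more reads in 5 or more mice, mice counted from 20 reads of the pair upwards, and 0.5 was added to each count. The p-values treat mice as independent, which mice of a shared cage or litter may not be.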

Additional observations from a re-analysis of the deposited data

Results flagged for a closer look

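Of 61 groups of 4 mice examined, 3 held a mouse whose gap to the nearest of the others exceeded Dixon's 95% critical value for 4 samples, and chance alone flags about 1 in 20 groups. Roseburia was high in control 3, at 0.621% of reads against 0.241 to 0.275% in the other controls. Extibacter was high in the same mouse, at 0.258% against 0.0232 to 0.0598%. ASF356 was low in knockout 4, at 0.0140% against 0.0609 to 0.0662% in the other knockouts.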

How the results depend on the processing

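No paired analysis was possible because the replicate numbers follow the order of deposit and name no shared litter, cage or day. None of the 28 named genera and variants passed the threshold under any of their 434 alternatives (edgeR, DESeq2 or limma, lowest adjusted p = 0.165), 16 kept their direction throughout and 12 did not, and the cause was not tested. With 1 mouse left out, 22 of the 28 turned or moved by over 1.5 times, the difference in family share ran from -5.98 to -1.39 percentage points, and the richness difference ran from 3.10 to 19.6. As a share of Bacillota reads or of reads outside Muribaculaceae the family difference was 0.486 and 0.733. The counts of genera and variants called were 0 throughout. The family's log2 fold change was -0.30 to 0.013 with single mice left out and 0.12 without knockout 1 and control 2 together (lowest adjusted p = 0.715). Variants higher in knockouts at an unadjusted p below 0.05 numbered 0 when 10 reads were asked of 5 mice and 0 to 5 with single mice left out. The 3 of the main fit reached 10 reads in 3 mice only. Asking for 5 mice, or leaving out knockout 2 or knockout 3, therefore took them out untested. Those lower numbered 3 with total reads only, 3 with DESeq2, 3 with centred log-ratios, 3 with no filter, 5 without knockout 1 and control 2, and 0 to 7 with single mice left out. These counts stand without the share over all variants under the same settings. With total reads only, log2 fold changes were -0.16 (NK4A136 group), -0.25 (Lachnoclostridium), -0.15 (Extibacter), -0.29 (Faecalimonas), -0.28 (ASV3160) and -0.40 (ASV3103). DESeq2 gave -0.27 (ASV3160) and -0.15 (ASV3103), and centred log-ratios gave 0.061 (ASV3155) and -1.18 (ASV3103). With log2 total reads as a covariate they were 0.16 (Roseburia), 0.29 (GCA-900066575), -0.083 (Faecalimonas), -0.12 (ASV3160) and -0.38 (ASV3103). GCA-900066575 was 0.042 with no filter and 0.011 with Lachnospiraceae reads as library size, and ASV3160 was -0.050 with 10 reads in 5 mice. Without knockout 1 and control 2 the values were 0.14 (GCA-900066575), -0.13 (Lachnoclostridium) and 0.24 (ASV3155). With single mice left out, the ranges were -0.48 to 0.093 (no genus name), -1.002 to 0.089 (Roseburia), -1.36 to 0.069 (Marvinbryantia), -0.35 to 0.47 (GCA-900066575), -0.25 to 0.48 (Lachnoclostridium), -0.11 to 1.39 (Extibacter), -0.17 to 0.29 (Faecalimonas), -0.82 to 0.046 (ASV3155), -0.64 to 0.32 (ASV3160), -0.54 to 0.20 (ASV3237) and -0.56 to 1.18 (ASV3103). Depth limits the rare variants most: 20 of the 144 held fewer than 10 reads in all, and 3 reads are 0.00778% of control 2 and 0.00132% of knockout 1.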
